A study of Mus musculus with 6 samples.

Results

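The mitochondrial ribosomal protein genes were followed in mouse pancreatic islets cultured with cisplatin or with its vehicle. They were taken as all probe rows whose gene symbol starts with Mrpl or Mrps and a number, which gave 76 of the 21400 genes and 107 of the 30146 rows in the deposited table. By symbol alone, the large subunit (Mrpl) had 66 rows of 48 genes and the small subunit (Mrps) 41 rows of 28 genes. Islets came from 3 male wild-type C57Bl/6 mice whose age the labels do not give, and those of each mouse were divided between 10 uM cisplatin and vehicle (0.9% saline) for 48 h. This gave 3 cisplatin and 3 vehicle libraries, numbered by mouse. Expression was read with TempO-Seq, an assay in which neighbouring detector oligonucleotides are joined where both have bound the same RNA, and the joined products are amplified and sequenced.

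Mitochondria carry their own ribosome, which translates the few proteins encoded by mitochondrial DNA, all of them parts of the respiratory chain and ATP synthase. Its RNA is made in the mitochondrion, but every one of its proteins is encoded in the nucleus, translated in the cytosol and imported, so that assembly of the particle needs both genomes. The large subunit joins amino acids and holds the exit tunnel, and the small subunit binds and decodes the messenger RNA. Below, large and small subunit rows mean rows with Mrpl and Mrps symbols. The place of each protein was not checked, and some symbols may not match it. In beta cells the respiratory chain links glucose oxidation to ATP and insulin release. Cisplatin, a platinum drug, forms crosslinks in nuclear and mitochondrial DNA.

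The cisplatin libraries held 1116916 to 1366829 counts and the vehicle libraries 1470227 to 2272276. Levels are given as CPM, counts scaled to 1000000 per library after TMM scaling (a factor per library that sets aside rows with extreme change). Cdkn1a, a p53 target that marks the response to DNA damage, had 1005, 948 and 900 CPM in cisplatin libraries 1, 2 and 3, against 30.4, 61.2 and 39.4 CPM in vehicle libraries, so it was higher in every library labelled cisplatin. Cells of the islet were present: beta cell markers summed to 66680 to 147800 CPM with cisplatin and 93090 to 165400 CPM with vehicle, and acinar markers to 6.43 to 15.2 CPM with cisplatin and 5.05 to 5.51 CPM with vehicle. Alpha cell markers summed to 8001 to 10930 CPM with cisplatin and 17340 to 50810 CPM with vehicle. Immune markers summed to 5.92 to 30.03 CPM with cisplatin and 78.3 to 170.8 CPM with vehicle, and endothelial markers to 2.15 to 11.4 CPM with cisplatin and 32.8 to 54.2 CPM with vehicle. Of the tested rows 4 of 5 immune, 2 of 4 alpha cell and 3 of 10 beta cell markers were called lower, beside 13.9% of all tested rows. The beta cell rows had a median log2 fold change of -1.48, with 3 positive estimates and 1 row called higher. Duct markers summed to 1340 to 2351 CPM with cisplatin and 1201 to 1613 CPM with vehicle, and 0 of their 4 tested rows were called. The part of these shifts in the results below was not tested. In these whole-islet lysates fewer cells of a type and less RNA per cell cannot be told apart.

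Promoters of these genes were compared with those of all genes on the panel. Factors of the ETS family (GABPA, also called NRF2), NRF1 and YY1 are known regulators of nuclear genes for mitochondrial proteins. RefSeq promoters (GRCm38.p6, 250 bases before to 50 after the start) were matched by symbol for 67 of the 76 genes. These 67 include genes without a tested row, so the shares of tested genes below are not from a like set. Both comparison groups include the members. The ETS core CCGGAAG occurred on either strand in 24 of them (35.8%), in 14 of 42 large and 10 of 25 small subunit genes, against 13.4% of 16163 panel genes with a promoter entry and 21.8% of the 5739 whose rows were tested. The NRF1 palindrome occurred in 3 members (4.48%), against 1.56% of panel genes and 2.63% of tested ones. The extended YY1 motif occurred in 5 members (7.46%), against 1.13% of panel genes and 1.92% of tested ones, each as an exact match on either strand. The 120 bases before the start are shown for 3 genes called higher below, with the ETS core in capitals. The lines run 5′ to 3′ on the strand of the gene:
Mrpl34 (chr8:71464806-71464925, plus strand): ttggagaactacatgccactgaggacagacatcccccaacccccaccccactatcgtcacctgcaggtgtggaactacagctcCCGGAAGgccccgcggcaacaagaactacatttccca
Mrpl43 (chr19:45006443-45006562, minus strand): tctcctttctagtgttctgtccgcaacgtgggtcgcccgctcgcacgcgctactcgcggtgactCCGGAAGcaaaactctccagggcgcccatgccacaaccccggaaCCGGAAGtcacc
Mrpl45 (chr11:97315596-97315715, plus strand): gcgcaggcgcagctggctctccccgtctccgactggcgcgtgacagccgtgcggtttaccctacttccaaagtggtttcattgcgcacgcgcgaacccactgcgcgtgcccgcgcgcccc
Mrpl34 holds the core on its own strand, Mrpl43 holds it at 2 places, and Mrpl45 holds none of the 3 motifs in the whole window. Of the 5 genes called higher that have a promoter entry, 4 hold the ETS core, in Mrpl57 and Mrps23 after the start. A match describes letters and does not show that a factor binds there.

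Most mitochondrial ribosomal protein rows did not pass the test, and those that did were higher with cisplatin. Of 56 rows with enough counts to be tested, 6 were called higher and 0 lower at an adjusted p under 0.05 (edgeR quasi-likelihood test, Benjamini-Hochberg over all 9381 tested rows). This is 10.7% of the members, beside 11.1% of all tested rows called higher, so the share called higher lies near the background. Of all tested rows 13.9% were called lower. At an unadjusted p under 0.05, 12 member rows were higher and 1 was lower, beside 1605 and 1896 of all 9381 tested rows. DESeq2 called 8 member rows higher and 0 lower, and its share over all rows is not given here. The number of member rows called higher was 1 without vehicle library 1, 2 without vehicle library 3, 9 without cisplatin library 1 and 1 when libraries were scaled by their totals alone. Over all rows, 504 were called higher without vehicle library 1 and 1244 without cisplatin library 1. The counts of 8 and 9 include the less abundant Mrps34 probe, which had enough counts in every cisplatin library but not in every vehicle library.

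Mrpl38, which codes for a large subunit protein with no bacterial counterpart, was the member row with the highest mean CPM over all 6 libraries. Its CPM were 355, 391.7 and 489 in cisplatin libraries, against 126, 192 and 127 in vehicle libraries. All cisplatin libraries lay above all vehicle libraries. The log2 fold change was 1.48 ± 0.28 (SE; adjusted p = 0.00226, edgeR), a 2.78-fold rise. It was called higher in each of the 14 alternative analyses, at 0.99 to 1.69, and is the member whose call held in all of them.

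Mrpl45, whose protein sits at the exit tunnel and tethers the ribosome to the inner membrane, rose by 1.66 ± 0.41 (adjusted p = 0.00929, edgeR). Its more abundant probe had 44.8, 73.2 and 47.2 CPM in cisplatin libraries, against 16.2, 22.1 and 14.2 CPM in vehicle libraries. The other tested Mrpl45 probe had 55.8, 39.9 and 39.7 CPM in cisplatin libraries, against 18.6, 36.6 and 15.7 CPM in vehicle libraries. Neither probe overlapped between the groups, but the second was not called (0.95 ± 0.44, adjusted p = 0.128, edgeR). The first lost its call when vehicle library 1 (adjusted p = 0.0581) or 3 (0.0673) was left out and with library totals alone (0.0714).

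Mrpl34, the relative of a small bacterial large subunit protein, had 126, 98.9 and 129 CPM in cisplatin libraries, against 32.4, 56.2 and 56.7 CPM in vehicle libraries. The groups did not overlap, and the log2 fold change was 1.29 ± 0.33 (adjusted p = 0.0126, edgeR). The call was lost on omitting vehicle library 1 (1.11, adjusted p = 0.0844) and on scaling by library totals alone (adjusted p = 0.121). Its second tested probe, at 10.3 ± 2.502 CPM in cisplatin libraries and 7.50 ± 4.55 CPM in vehicle libraries (SD, n = 3 each), had a log2 fold change of 0.48 ± 0.74.

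Mrpl57 and Mrpl43, 2 further large subunit genes, rose less. Mrpl57 had 129, 112 and 192 CPM in cisplatin libraries, against 56.5, 88.4 and 74.4 CPM in vehicle libraries. Mrpl43 had 106, 117 and 167 CPM in cisplatin libraries, against 61.7, 74.5 and 63.4 CPM in vehicle libraries. Both were highest in cisplatin library 3, and in neither did the groups overlap. Their log2 fold changes were 0.98 ± 0.32 (adjusted p = 0.0378) and 0.97 ± 0.31 (adjusted p = 0.0333, edgeR). Leaving out cisplatin library 3, vehicle library 1 or vehicle library 3 ended both calls, with adjusted p of 0.122, 0.181 and 0.135 for Mrpl57 and 0.0995, 0.142 and 0.151 for Mrpl43. The Mrpl43 call was also lost on leaving out cisplatin library 2 (0.0519) or vehicle library 2 (0.0506). Neither was called with library totals alone or with no filter on low counts.

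Of the 22 tested small subunit rows 15 had positive estimates, and Mrps23 was the one called higher. It had 69.3, 73.2 and 76.1 CPM in cisplatin libraries, against 21.7, 33.5 and 32.3 CPM in vehicle libraries, a log2 fold change of 1.32 ± 0.35 (adjusted p = 0.0136, edgeR). The cisplatin libraries lay between 69.3 and 76.1 CPM and well above the vehicle libraries. Leaving out vehicle library 1 (adjusted p = 0.0909) or 3 (0.0583) ended the call, as did library totals alone (0.137).

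**Figure D1:**
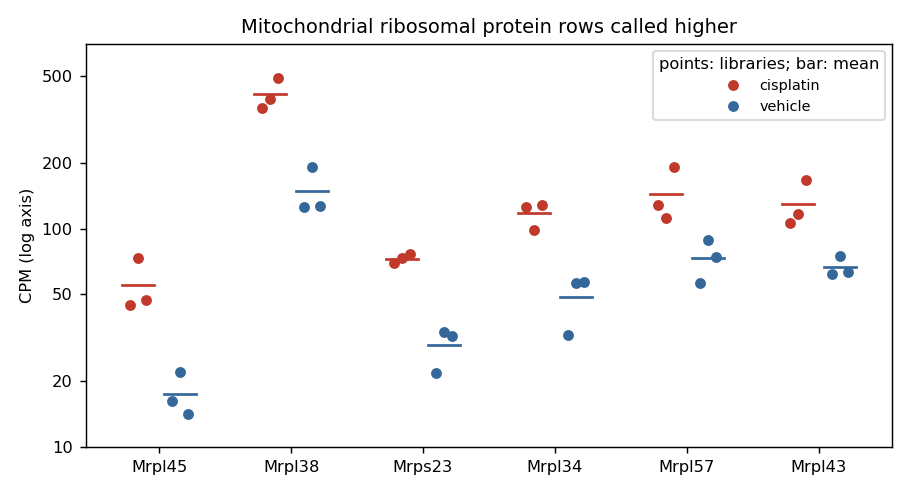
CPM on a log axis of the 6 mitochondrial ribosomal protein rows called higher, with a point per library and a bar at the mean of each group of 3. In every row the cisplatin points lie above the vehicle points, with Mrpl38 at 355 to 489 CPM against 126 to 192 CPM.

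The other abundant members did not pass the test. The more abundant Mrpl24 probe had 223, 202 and 190 CPM in cisplatin libraries, against 144, 129 and 131 CPM in vehicle libraries (0.61 ± 0.26, adjusted p = 0.103, edgeR). These groups did not overlap, whereas the second Mrpl24 probe, of a like level, overlapped (0.05 ± 0.27). Mrps16, relative of a bacterial small subunit protein, was at 0.34 ± 0.30. Mrps12, whose bacterial relative sits at the decoding centre, had 67.7, 83.7 and 86.9 CPM in cisplatin libraries, against 71.5, 73.2 and 71.6 CPM in vehicle libraries, and these overlapped (0.14 ± 0.30). Mrps18b was at 0.75 ± 0.33 (adjusted p = 0.110, or 1.11 and adjusted p = 0.0283 without vehicle library 2). Mrps11 was just short of the threshold at 0.88 ± 0.32 (adjusted p = 0.0569, edgeR), with 103, 115 and 179 CPM in cisplatin libraries, against 58.5, 81.4 and 75.2 CPM in vehicle libraries. It was called without cisplatin library 1 (1.14, adjusted p = 0.0256), with DESeq2, after thinning to equal total counts and with mitochondrially encoded rows left out of the fit.

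At the lower end stood Mrps9, a small subunit gene picked after its values were seen. Its more abundant probe had 4.23, 1.90 and 18.2 CPM in cisplatin libraries, against 25.3, 25.9 and 32.3 CPM in vehicle libraries. The groups did not overlap, and cisplatin library 3 lay nearest to the vehicle libraries. The log2 fold change was -1.81 ± 0.68 (adjusted p = 0.0673, edgeR), and with the mouse as a block the row was called lower (-2.16, adjusted p = 0.0363). It was also called lower without cisplatin library 3 (-3.12, adjusted p = 0.00791), with library totals alone and with no filter. Of 2 others picked in the same way, Mrps5 was at -1.34 ± 0.74 and Mrps28, with 0 CPM in cisplatin library 3, at -0.96 ± 0.89, neither called. All of these rows reached the minimum of the filter on low counts in every vehicle library but not in every cisplatin library. They were thus kept through the group where they were high, and the calls of Mrps9 in other fits carry this limit.

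**Figure D2:**
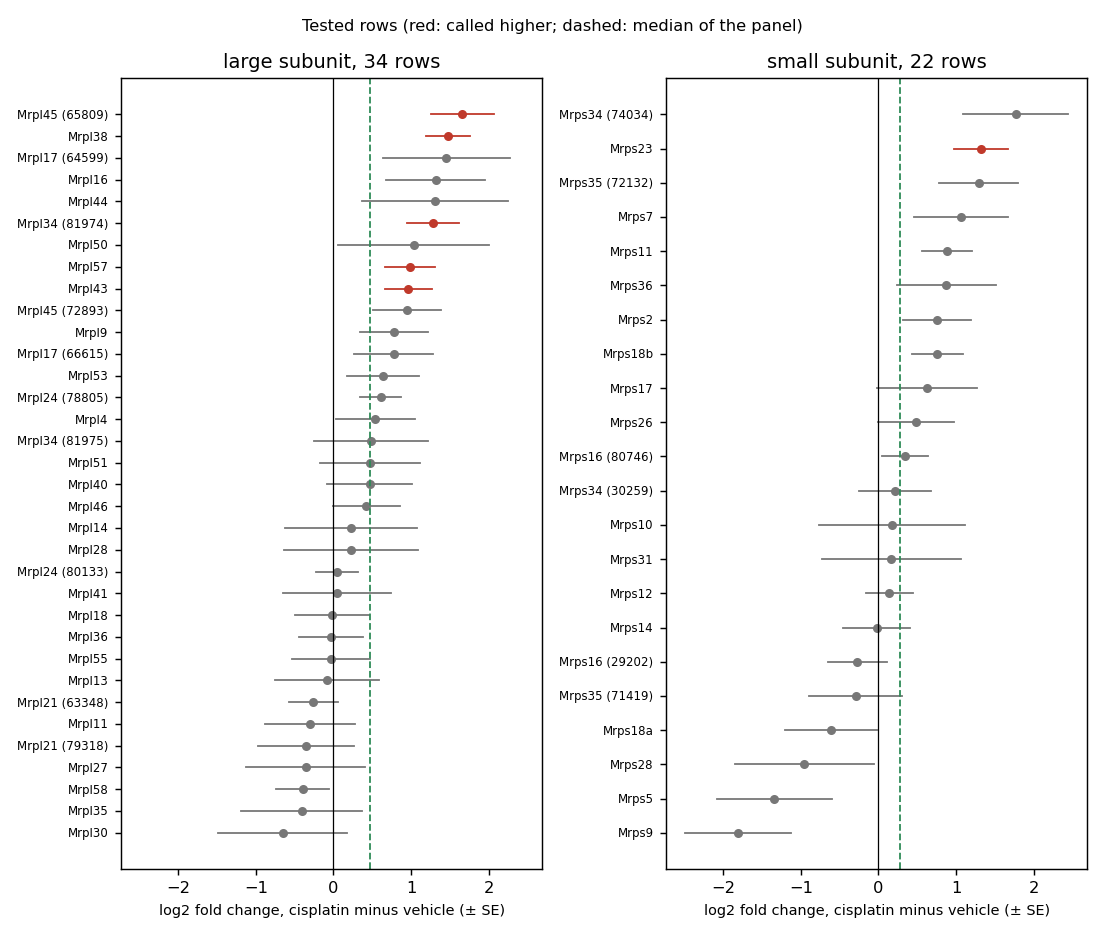
Log2 fold change, cisplatin minus vehicle, with SE for each tested row of the large (34 rows) and small (22 rows) subunit, where numbers in brackets tell apart probes of a gene and the dashed line is the median of the panel. The 6 rows called higher are red, and the medians are 0.47 for the large and 0.28 for the small subunit.

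Set side by side, 5 of 34 large subunit rows (14.7%) and 1 of 22 small subunit rows (4.55%) were called higher, with 0 lower in either. Beside this, 11.1% of all tested rows were called higher and 13.9% lower. The subunits were not tested against each other. Large subunit rows ran from -0.65 to 1.66 with a median log2 fold change of 0.47, small subunit rows from -1.81 to 1.77 with a median of 0.28, and all tested rows had a median of -0.07. The small subunit count was 3 with DESeq2 or without cisplatin library 1, 2 without vehicle library 2 and 0 without vehicle library 1 or 3, and that of the large subunit was 1 without vehicle library 1 and 2 without vehicle library 3. Both counts of 3 include the less abundant Mrps34 probe, the row at 1.77. That row reached the filter's minimum in every cisplatin library, where it was high, but not in every vehicle library, which limits these values. The small subunit median was 0.14 without cisplatin library 2. With library totals alone the medians were 0.06 for the large and -0.22 for the small subunit, and on that scale all tested rows had a median of -0.54. Relative to the median of all rows the members as a whole stood 0.52 higher on the TMM scale and 0.53 higher with library totals alone, but 0.27 higher with no filter on low counts. All 3 cisplatin libraries lay above all 3 vehicle libraries in 14 of 56 member rows (25%), where this held in 19.1% of all tested rows, and below them in 3 member rows (5.36%), where this held in 24.3%.

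Summed over all 66 rows, tested or not, the large subunit reached 1853, 1837 and 2004 CPM in cisplatin libraries, against 1093, 1387 and 1167 CPM in vehicle libraries. The small subunit summed to 1000, 1027 and 1068 CPM in cisplatin libraries, against 663, 921 and 766 CPM in vehicle libraries. On this scale both sums were higher in the cisplatin library of each mouse, but with library totals alone the mean small subunit sum was lower with cisplatin (883 CPM) than with vehicle (921 CPM). As shares of all counts the members took 0.302%, 0.223% and 0.210% of cisplatin libraries, against 0.222%, 0.249% and 0.216% of vehicle libraries, and these overlapped. Mitochondrially encoded rows took 2.83%, 3.11% and 28.6% of the cisplatin libraries, against 1.74%, 0.188% and 0.770% of the vehicle libraries. With those rows left out of the total, chosen after seeing the data, the member shares were 0.311%, 0.231% and 0.293% in cisplatin libraries, against 0.226%, 0.249% and 0.218% in vehicle libraries, and still overlapped.

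The ratio of large to small subunit counts does not depend on how libraries are scaled. It was 1.85, 1.79 and 1.88 in cisplatin libraries, against 1.65, 1.51 and 1.52 in vehicle libraries, so the groups did not overlap. Mrpl38 alone gave 420, 412 and 456 counts in cisplatin libraries, against 319, 304 and 322 in vehicle libraries. Without it the ratios were 1.497, 1.41 and 1.42 in cisplatin libraries, against 1.46, 1.30 and 1.36 in vehicle libraries, and the groups overlapped, with the cisplatin library still the higher one in each of the 3 mice. Leaving out this gene was chosen after seeing the data.

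**Figure D3:**
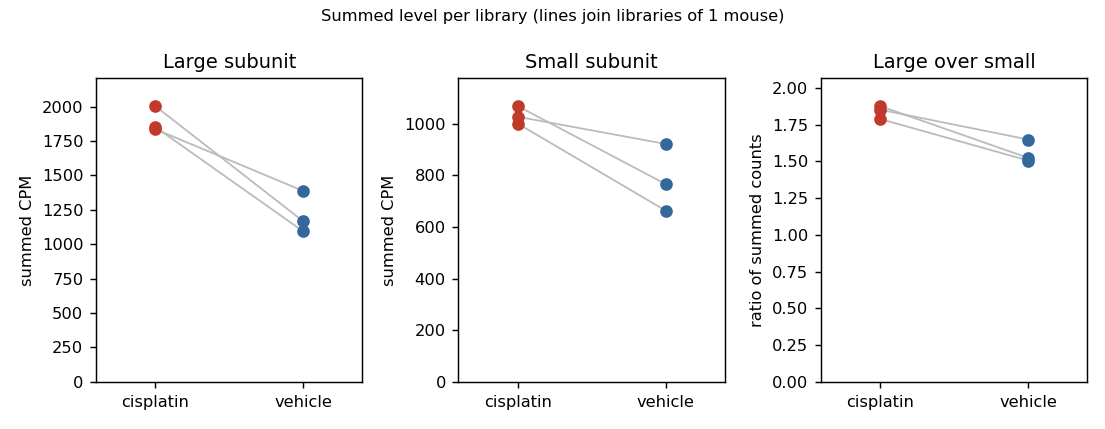
Summed CPM of large and small subunit rows and the ratio of their counts in each library, with grey lines joining the libraries of a mouse. Large subunit sums lie at 1837 to 2004 CPM with cisplatin and 1093 to 1387 CPM with vehicle, and all lines slope down towards vehicle.

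Among the 8 genes with 2 tested probes, log2 fold changes of both probes had the same sign in 6. The estimates differed by 0.0958 for Mrpl21 and by 1.58 for Mrps35, whose more abundant probe stood at 1.29 ± 0.50 and whose other probe stood at -0.30 ± 0.59. The Mrps34 probes were at 0.22 ± 0.46 and 1.77 ± 0.68, none of these 4 called. These genes were named for the size of the difference. Probes of a gene share its transcripts and are not replicates.

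The remaining 51 rows could not be tested. They had 0 to 79 counts over all 6 libraries with a median of 16, and 3 were at 0 in all of them. For 28 of the 76 genes no row was tested, among them Mrpl12, known in mammals to bind the mitochondrial RNA polymerase, and Mrpl32, which a protease must trim before the ribosome assembles. Of the tested rows, 34 reached the filter's minimum in every library, 13 in all vehicle libraries and not in all cisplatin libraries, and 1, the less abundant Mrps34 probe, in all cisplatin libraries alone. A second Mrpl40 probe, picked after its values were seen, had 43, 14 and 7 counts in cisplatin libraries, against 3, 6 and 6 in vehicle libraries. It was called higher when no filter was applied and on leaving out cisplatin library 3 or vehicle library 2. In the fits with a library left out, only cisplatin libraries carried it through the filter. It was thus kept there through the group where it was high, which limits these calls.

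Member genes are short. In GENCODE M21 (GRCm38) the 48 tested genes span 0.789 to 121.8 kb with a median of 6.64 kb, against 24.1 kb over 7114 tested genes. Over all tested rows the log2 fold change falls with span: with rows split by span into 4 groups of like size, the median was 0.58 among the shortest genes (up to 10.6 kb) and -1.29 among the longest (over 58.6 kb). Of the member rows, 43 fall in the shortest group, where 5 (11.6%) were called higher and 0 lower, against 23.8% and 2.54% of all rows there. Their median there was 0.48. The member of longest span, Mrps28 at 121.8 kb, stood at -0.96, and Mrps9 spans 54.5 kb. Across tested rows Spearman's rho between span and log2 fold change was -0.569 over all 9288 rows with a span and -0.286 over the 56 member rows. These are correlations across genes, which share the same 6 libraries and are not independent replicates.

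**Figure D4:**
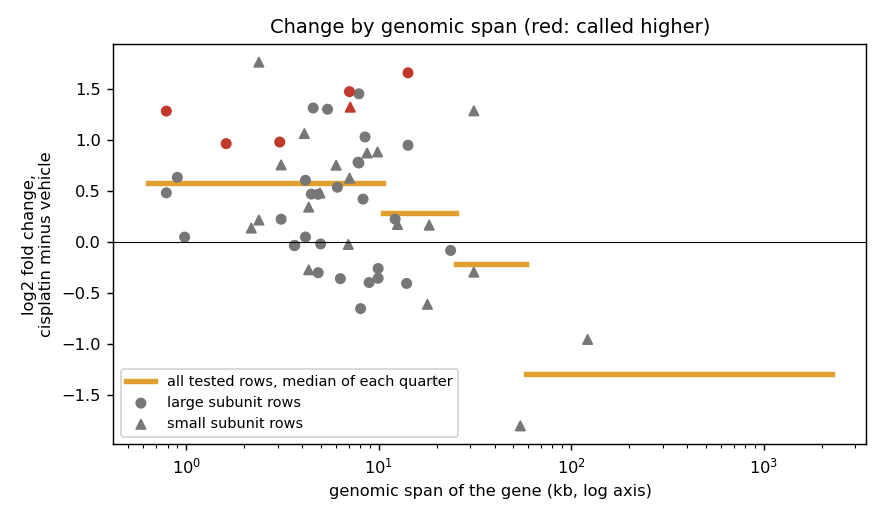
Log2 fold change of each member row against the genomic span of its gene on a log axis, with large subunit rows as circles, small subunit rows as triangles and rows called higher in red. Orange lines give the median of all tested rows in each of 4 span groups of like size, 0.58 for the shortest and -1.29 for the longest.

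The 76 genes lie on 17 chromosomes. Mrpl38, Mrpl45 and Mrps23 lie on chromosome 11 (GRCm38, 116131817 to 116138868, 97315716 to 97329920 and 88204388 to 88211507), Mrpl34 on chromosome 8 (71464959 to 71465747), Mrpl57 on chromosome 14 (57826234 to 57829296) and Mrpl43 on chromosome 19 (45004829 to 45006442). Of the 48 tested genes 10 (20.8%) start within 1000 bases of a coding gene that runs the other way, against 10.5% of tested coding genes. Mrpl43 overlaps by 780 bases the gene on the opposite strand for Twnk, the helicase that unwinds mitochondrial DNA. Twnk rose as well, with 54.1, 97.9 and 39.7 CPM in cisplatin libraries, against 17.4, 15.2 and 16.1 CPM in vehicle libraries (1.97 ± 0.42, adjusted p = 0.00453, edgeR). Counts are given per probe, with separate rows for these genes. Probe positions were not used here, so whether either probe lies in the shared stretch was not tested.

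Ribosomal proteins that carry other names were read in the same way. Dap3, a GTP-binding protein of the small subunit, had the call among 5 tested rows, of which 0 were called lower. Of all tested rows 11.1% were called higher and 13.9% lower. The more abundant Dap3 probe rose by 1.05 ± 0.27 (adjusted p = 0.0113, edgeR), with 815, 686 and 1023 CPM in cisplatin libraries, against 381, 447 and 390 CPM in vehicle libraries. Its call was lost when vehicle library 1 (adjusted p = 0.0797) or 3 (0.0706) was omitted and with library totals alone (0.180), and its other probe was at 0.28 ± 0.49. Among 21 tested rows for assembly of the ribosome and modification of its RNA, 0 were called higher and 1 lower (4.76%), with a median of 0.12. The row called lower was Afg3l2, a subunit of the inner membrane protease that trims the Mrpl32 protein (-1.40 ± 0.38, adjusted p = 0.0153, edgeR). Its call was lost when vehicle library 1 was left out (0.106). Without cisplatin library 1 or 3, 1 assembly row was called higher.

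Of 9 tested rows for translation factors, 0 were called in either direction (edgeR), while 2 had an unadjusted p under 0.05 and DESeq2 called 1 higher. Without cisplatin library 3, 1 was called higher. Gfm2, a factor that recycles the ribosome, was the most abundant at 0.34 ± 0.32, and at -0.08 without cisplatin library 3. The mitochondrial tRNA synthetases, which charge the tRNAs used by this ribosome, had 4 of 11 tested rows called lower (36.4%) and 0 higher, with a median of -0.86, 2 positive and 9 negative estimates. Of all tested rows 13.9% were called lower, and of those in the longest span group 40.6%. Wars2, for tryptophan, had 0.846, 0.951 and 2.15 CPM in cisplatin libraries, against 19.8, 20.2 and 23.6 CPM in vehicle libraries (-3.98 ± 0.76, adjusted p = 0.002, edgeR). Fars2, for phenylalanine, had 3.38, 2.85 and 4.29 CPM in cisplatin libraries, against 38.7, 45.5 and 27.2 CPM in vehicle libraries (-3.38 ± 0.56). Both genes reached the filter's minimum in the vehicle libraries alone. These rows were thus kept through the group where they were high, which limits what the gap between the groups shows. Both calls held without any single library, and this limit applies there too. The number lower was 2 without cisplatin library 2 or vehicle library 1 or 3, and the median was -0.51 without cisplatin library 1 and -2.36 without cisplatin library 3. Wars2 spans 98.1 kb and Fars2 608.9 kb.

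Among 8 tested rows for copying and transcription of mitochondrial DNA, 2 were called higher (25%) and 0 lower, beside 11.1% and 13.9% of all tested rows. The estimates were 5 positive and 3 negative. Their median was 1.15 (0.43 without vehicle library 1, 0.70 without cisplatin library 1 and 0.52 without vehicle library 3). Polg2, the accessory subunit of the mitochondrial DNA polymerase, had 216, 166 and 139 CPM in cisplatin libraries, against 10.7, 10.7 and 7.48 CPM in vehicle libraries. This was a log2 fold change of 4.17 ± 0.36 (adjusted p = 2.4e-05, edgeR), and Twnk was the other row called higher. Of 9 tested rows for regulators of nuclear genes for mitochondria, 1 was called higher and 1 lower (11.1% each), near the shares of all tested rows. Yy1 rose by 1.04 ± 0.27. Gabpa is a subunit of the ETS factor whose core was searched for in the promoters. It fell to 0.846, 0 and 3.22 CPM in cisplatin libraries, against 14.6, 17.0 and 7.87 CPM in vehicle libraries. Both calls were unsteady. Gabpa (-3.27 ± 1.01, adjusted p = 0.030) lost its call with the mouse as a block (0.0687), on leaving out cisplatin library 2 (0.0674) and on leaving out vehicle library 1, 2 or 3 (0.184, 0.109 and 0.0818). It was also at -4.67 without cisplatin library 3. Gabpa reached the filter's minimum in the vehicle libraries alone, the group where it was high. Yy1 (adjusted p = 0.0117) lost its call on leaving out vehicle library 1 (0.0951) or 3 (0.0612), and also on scaling by library totals alone. The number of regulator rows higher was 3 without cisplatin library 1.

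The cytosolic ribosomal proteins had 19 of 85 tested rows higher (22.4%) and 0 lower with a median log2 fold change of 0.56, beside 11.1% and 13.9% of all tested rows. The nuclear-encoded respiratory chain subunits had 9 of 74 higher (12.2%) and 0 lower with a median of 0.24, a share near the 11.1% of all tested rows called higher. Without vehicle library 1 the numbers higher were 5 and 2, and without vehicle library 3 they were 10 and 2. With library totals alone they were 7 and 2, and 4 respiratory chain rows were called lower. The respiratory chain median was 0.11 without cisplatin library 1 or vehicle library 1, 0.50 without cisplatin library 3, 0.51 without vehicle library 2 and -0.13 on scaling by library totals alone. Rps27l, a p53 target that resembles a small subunit protein, rose by 2.40 ± 0.41 and Rplp1 of the ribosomal stalk by 1.98 ± 0.48, and the Rplp1 call was lost when vehicle library 1 was left out (adjusted p = 0.0567). Ndufb6 of complex I rose by 1.96 ± 0.33 and Cox6a1 of complex IV by 1.87 ± 0.32. All 12 tested rows of mitochondrially encoded genes, whose messengers this ribosome translates, were called higher, with a median of 3.61. The number was 7 without cisplatin library 3 or vehicle library 1 and 6 without vehicle library 3, and the median was 2.06 without cisplatin library 3. The more abundant mt-Nd6 probe had 22407, 32046 and 342555 CPM in cisplatin libraries, against 10320, 1230 and 5284 CPM in vehicle libraries, a log2 fold change of 4.56 ± 1.07. It was 2.30 without cisplatin library 3 and was not called with no filter on low counts (adjusted p = 0.284). mt-Nd3 had 23.7, 75.1 and 322 CPM in cisplatin libraries, against 10.3, 3.79 and 6.69 CPM in vehicle libraries, again highest in cisplatin library 3, without which it was at 2.81. The mt-Nd3 row reached the filter's minimum in every cisplatin library, the group where it was high, but not in vehicle library 2. Its call, also as 1 of the 12 rows, carries this limit. No test of a difference between these families and the mitochondrial ribosomal proteins was made.

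**Figure D5:**
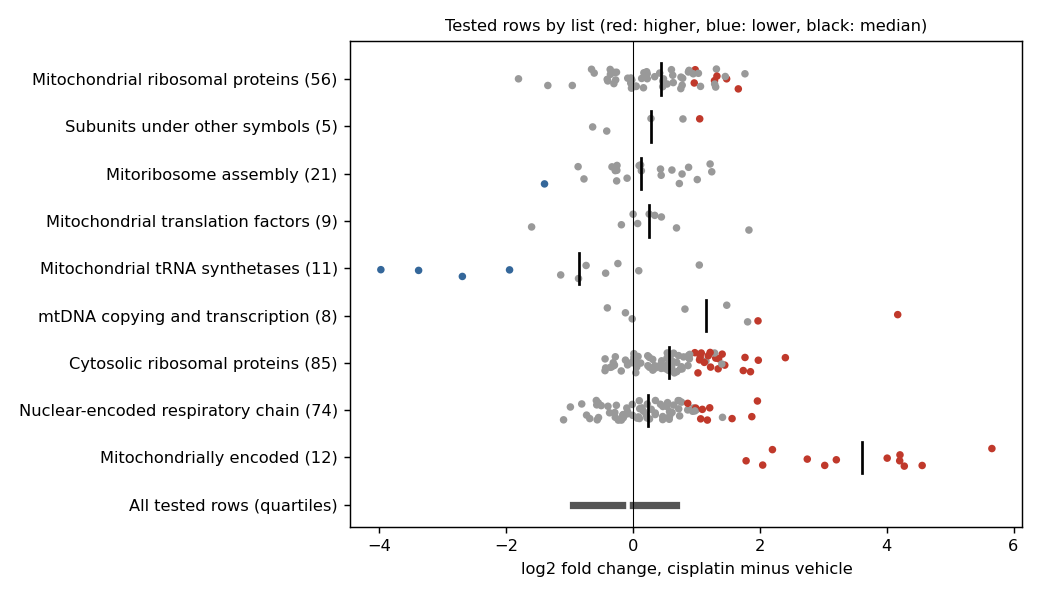
Log2 fold change, cisplatin minus vehicle, of each tested row by list, with the number of rows in brackets, rows called higher in red, rows called lower in blue and a black line at the median of each list. Mitochondrial ribosomal proteins have a median of 0.44, tRNA synthetases -0.86 and mitochondrially encoded rows 3.61, and the grey bar at the bottom spans the quartiles of all tested rows (-0.94 to 0.68) around a median of -0.07.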

How the data were processed

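The authors deposited whole-number counts per probe and library, made from TempO-Seq libraries of a mouse whole transcriptome panel (version 1.1, per the labels' protocols). Per the submitters' processing notes, fastp 0.23.2, STAR 2.7.10b and DESeq2 1.44.0 were used, with no role given; the sources used here do not name the build, alignment target or counting rules.

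Counts were analysed with edgeR 4.0.16 in R 4.3.3. Rows were kept by its expression filter (minimum count 10, 9381 rows), scaled with TMM factors over the tested rows and tested with the robust quasi-likelihood F-test, two-sided, on treatment alone. Benjamini-Hochberg adjustment ran over all tested rows, and rows under 0.05 were called. Log2 fold changes are cisplatin minus vehicle, with SE computed as the absolute log2 fold change over the root of F. The fit was tested on simulated data in which 200 rows were changed. It called 2 of 94 rows with a log2 change of 1 in either direction and 65 of 94 with a log2 change of 2. Of 8616 unchanged rows it called 3. A row that was not called can therefore hold a 2-fold change. In the data 2344 rows were called, so the adjustment was less strict there and the simulated shares need not carry over. The p-values measure the spread between 3 libraries a group. Sharing of reads between near-identical genes was not tested, and levels of different probes do not rank transcripts.

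The members and lists were chosen with earlier results of these data known. Named were called members (up to 12 a direction), the 4 most abundant rows of each subunit, other tested probes of called genes, up to 2 called members a direction of each list (else the most abundant) and Cdkn1a.

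The 2 libraries of a mouse carry 1 animal identifier in the labels, so the numbers pair the samples; in the 3 pairs, deviations from group means had correlations of -0.116, 0.0336 and 0.219. Every pair of libraries in a group differed by more than sampling noise. Alternatives were RLE factors, library totals alone, no filter, DESeq2 1.42.0, a mouse block, probes summed per gene, thinning to 1116916 counts, and each library left out; leaving out mitochondrially encoded rows or Mrpl38 was added after seeing the data. Gene spans are from GENCODE M21 and promoters from RefSeq GRCm38.p6.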

Additional observations from a re-analysis of the deposited data

How the results depend on the processing

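Over all rows 2344 were called, 1085 to 2538 with single libraries left out. The members called higher numbered 6 in the reported fit, 1 with library totals alone and 1 to 9 with single libraries left out; those called lower numbered 0, and 1 with library totals alone, no filter or the replicate block (Mrps9 each time), with 0 to 1 when single libraries were left out. The paired fit, with the mouse as a block, kept all 6 calls higher. Large subunit rows called higher numbered 5, 1 with library totals alone, and 1 to 6 without single libraries. Small subunit rows called higher numbered 1, 0 with library totals alone, 3 with DESeq2, 2 after thinning, 2 without mitochondrially encoded rows and 0 to 3 without single libraries. Both counts of 3 include the less abundant Mrps34 probe, with the limit given above. Small subunit rows called lower numbered 1 with library totals alone, no filter or the block, and 0 to 1 without single libraries.

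With library totals alone the median log2 fold changes were -0.011 for all members, 0.057 for the large and -0.22 for the small subunit. With no filter they were 0.125 for all members and 0.19 for the large subunit. Without single libraries they ranged from 0.33 to 0.55, 0.40 to 0.66 and 0.14 to 0.34. Relative to the median of all rows the members stood 0.27 to 0.62 higher over the 14 alternatives. Summed large subunit CPM, 1898 with cisplatin and 1216 with vehicle, were 1625 and 1434 with library totals alone, and small subunit CPM, 1032 and 783, were 883 and 921, which turns their order. The cisplatin sums were 1783 and 969 with no filter and 2083 and 1132 without mitochondrially encoded rows. Without single libraries the large subunit sums were 1818 to 1997 with cisplatin and 1108 to 1291 with vehicle, and the small subunit sums 988 to 1087 and 700.5 to 832. The large over small ratio, 1.84 with cisplatin and 1.56 with vehicle, was 1.441 and 1.372 without Mrpl38, and 1.82 to 1.86 and 1.52 to 1.59 without single libraries.

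The less abundant Mrpl24 probe had its sign reversed with library totals alone (-0.40), no filter (-0.062) and without vehicle library 3 (-0.026, with 0.18 the highest without a single library), the more abundant Mrps16 probe (-0.087) and Mrps12 (-0.36) with library totals alone, and Gfm2 with library totals alone (-0.18) and without cisplatin library 3 (-0.079, with 0.58 the highest without a single library). The cause was not tested. The median SE over the tested member rows was 0.51, and 51 member rows had too few counts to be tested.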
